A study of Homo sapiens with 8 samples.

Results

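RNA levels of 10 genes around EGFR on the short arm of human chromosome 7 were followed in 2 lung cancer cell lines that had become resistant to the EGFR inhibitor gefitinib. The genes, in order from the tip of the arm toward the centromere, were GRB10, SEC61G, EGFR, LANCL2, VOPP1, GBAS, PSPH, CCT6A, SUMF2 and CHCHD2. Each was the row of the gene tables that carried its symbol on chromosome 7, and the 10 rows stood among 48405 rows in each table. A mean level over all 8 libraries would have chosen between several rows of a name, but 0 genes had more than 1 row, so the rows were chosen by name and place alone. The list of genes was chosen with earlier results of these libraries known, so counts and medians over it are given as a description.

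The 4 groups were HCC827 cultured with gefitinib, its DMSO control, HCC4006 cultured with gefitinib, and its DMSO control, with 2 polyA RNA libraries each. HCC827 and HCC4006 are established non-small cell lung cancer lines that carry activating EGFR mutations. A resistant culture was one that could be kept routinely in medium with 3 µM gefitinib, and the growth protocol shared by all samples also names BIBW2992, another EGFR inhibitor. The DMSO cultures, passage controls carried in the solvent, came from the same lines, and the labels do not say whether resistant cultures were clones or mixed populations. The labels do not state that replicate libraries were grown separately, so p-values reflect a spread between samples that may be technical. Libraries are called A and B after the table columns.

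EGFR is a receptor tyrosine kinase of the cell surface that drives growth when one of its ligands binds or when its kinase domain is mutated. In lung adenocarcinoma and glioblastoma its gene is often amplified, and the neighbouring genes on 7p11 can be copied along with it. SEC61G encodes the gamma subunit of the SEC61 channel, through which new proteins enter the endoplasmic reticulum. LANCL2 is a lanthionine synthetase C-like protein, and VOPP1 is a vesicular protein first described as co-amplified with EGFR. Farther along, GBAS (now NIPSNAP2) and CHCHD2 are mitochondrial proteins, PSPH makes serine from phosphoserine, CCT6A is a subunit of the CCT chaperonin that folds actin and tubulin, and SUMF2 is a relative of the sulfatase activating enzyme. GRB10 is an adaptor that binds insulin and growth factor receptors. These RNA values hold no measure of DNA copy number, so the name amplicon was not checked here.

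The start regions of 3 of these genes are shown because the results in HCC827 turn on them. EGFR had the most negative change, SEC61G had the highest level of the 10, and GRB10 was the gene with higher values in the resistant culture. They are RefSeq sequences on GRCh38.p14, from 250 bases before to 50 bases after the outermost annotated start, read 5′ to 3′ on the gene's strand. EGFR lies at chr7:55018767-55019066 on the plus strand, SEC61G at chr7:54759162-54759461 on the minus strand, and GRB10 at chr7:50793404-50793703 on the minus strand. Capitals mark GGGCGG or its reverse complement CCGCCC, the core of the GC box, where overlapping matches were counted separately.
EGFR: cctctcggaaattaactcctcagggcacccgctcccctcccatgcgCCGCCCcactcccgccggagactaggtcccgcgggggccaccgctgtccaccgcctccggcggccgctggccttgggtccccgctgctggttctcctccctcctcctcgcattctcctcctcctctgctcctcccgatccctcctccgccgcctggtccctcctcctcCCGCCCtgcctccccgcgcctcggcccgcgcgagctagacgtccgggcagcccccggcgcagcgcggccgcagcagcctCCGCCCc
SEC61G: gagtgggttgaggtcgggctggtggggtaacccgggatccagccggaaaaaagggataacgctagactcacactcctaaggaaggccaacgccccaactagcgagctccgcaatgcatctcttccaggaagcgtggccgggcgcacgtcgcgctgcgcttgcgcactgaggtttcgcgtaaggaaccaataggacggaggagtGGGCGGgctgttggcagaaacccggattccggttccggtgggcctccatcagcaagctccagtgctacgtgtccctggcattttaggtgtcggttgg
GRB10: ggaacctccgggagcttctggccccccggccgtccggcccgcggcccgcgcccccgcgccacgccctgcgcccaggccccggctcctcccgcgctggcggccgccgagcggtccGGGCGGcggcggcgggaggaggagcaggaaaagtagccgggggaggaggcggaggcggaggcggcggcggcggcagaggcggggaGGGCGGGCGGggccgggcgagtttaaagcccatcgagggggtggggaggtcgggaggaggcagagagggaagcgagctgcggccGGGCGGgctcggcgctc

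The EGFR window held 3 GC boxes in 75.3% G and C, the SEC61G window held 1 in 61.0%, and the GRB10 window held 4 in 81.0%, of which 2 overlap. Of 35116 RefSeq promoters of the same length, 45.0% held at least 1 GC box and 15.8% held at least 3, and the median G and C content was 58.7%. TATAAA, searched on both strands, was absent from all 3 windows and present in 11.5% of all promoters. CCAAT, also searched on both strands, occurred once in SEC61G, not in EGFR or GRB10, and in 34.6% of all promoters. Of the 10 genes, 7 had an entry. VOPP1 held 3 GC boxes, SUMF2 held 2, GBAS held 1 and CHCHD2 held 0. A match is a description of letters and not a measured binding site.

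Levels are given in FPKM, a fragment count divided by transcript length and by the size of the library. A change is the mean log2(FPKM + 0.5) of the resistant libraries minus that of the DMSO libraries, tested with limma across all rows with a mean of at least 0.5 FPKM, and a gene was called at a Benjamini-Hochberg adjusted p below 0.05. All 10 genes passed that filter in each line. Depth is unknown, since FPKM carry no counts. The resistant libraries of HCC827 differed from each other by a median of 0.542 on the log2 scale, against 0.374 between its DMSO libraries, and the corresponding medians in HCC4006 were 0.218 for the resistant and 0.564 for the DMSO libraries. Gene levels between the lines come from separate tables and are described with no test.

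In HCC827, the genes nearest to EGFR had much lower RNA values in the resistant culture. For SEC61G, EGFR, LANCL2, VOPP1, GBAS, PSPH, CCT6A and CHCHD2, which is 8 of the 10 genes, both resistant libraries lay below both DMSO libraries. Of all 19324 rows tested in this line, 24.7% did so. LANCL2 was the 1 gene called, and it fell by 2.19 on the log2 scale, while 6.80% of all rows were called in either direction and 1.67% were called lower. GRB10 was the 1 gene with both resistant libraries above both DMSO libraries, as were 24.3% of all rows. In bulk RNA, fewer cells with a high level and less RNA per cell cannot be told apart.

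EGFR measured 1639 and 424 FPKM in the resistant HCC827 libraries, against 5462 and 5246 FPKM in the DMSO libraries. The groups did not overlap, and the resistant libraries stood 3.87-fold apart while the DMSO libraries stood 1.04-fold apart. The log2 change was -2.68 (SE 0.702, 95% confidence interval -4.54 to -0.83), and its limma adjusted p of 0.141 missed the threshold. By rank within a library, EGFR was row 488 and row 2551 in the resistant libraries, against row 102 and row 98 in the DMSO libraries. Without resistant library A the change was -3.66 and without library B it was -1.71. The first of these had a limma adjusted p of 0.0273, but it left the resistant group with 1 library, assumed to vary like the close DMSO pair, and dropped the spread just described.

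The spread between the resistant HCC827 libraries went with the length of a gene's locus. Rows that spanned at least 100 kb were higher in A than in B by a median of 0.26 on the log2 scale (3387 rows), and rows under 20 kb were lower in A by a median difference of -0.23 (5716 rows). In the DMSO libraries these medians were 0.09 and 0.10. The EGFR locus spans 237.6 kb and its difference between A and B was 1.95. CHCHD2, whose locus spans 5.01 kb, stood the other way, with a difference of -1.03. VOPP1 (136.9 kb), GBAS (112.9 kb) and CCT6A (12.36 kb) had the direction of the median for their length, at 0.55, 0.33 and -0.23. GRB10 (203.4 kb) and SUMF2 (16.67 kb) had the opposite direction, at -0.09 and 0.41. The part of this library difference in the EGFR and CHCHD2 values was not tested.

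SEC61G had 13476 and 12678 FPKM in the resistant HCC827 libraries, against 44803 and 39392 FPKM in the DMSO libraries. By rank it was row 31 and row 37 in the resistant libraries, and in DMSO it was row 3 in library A and the most abundant row of the whole table in library B. The resistant libraries agreed within 1.06-fold, and the groups did not overlap. The change of -1.68 (SE 0.343) had a limma adjusted p of 0.0738, which missed the threshold. The SEC61G row alone held 0.256% and 0.218% of all summed FPKM in the resistant libraries and 0.846% and 0.823% in the DMSO libraries. This row also names the overlapping RP11-745C15.1, so its fragments may belong to either gene.

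LANCL2 measured 621 and 728 FPKM in the resistant HCC827 libraries, against 2318 and 4093 FPKM in the DMSO libraries. Both resistant libraries were low and close together, and the DMSO libraries differed by 1.77-fold. LANCL2 was 4.58-fold lower in the resistant culture (log2 change -2.19, SE 0.390, limma adjusted p 0.0484). This call did not hold when the fit was limited to tested rows above 0 in all 4 libraries, where the limma adjusted p was 0.115 and 19 of 15917 rows (0.119%) were called, 0 of them among the 10 genes. With either resistant library left out, the limma adjusted p was 0.276 or 0.269. With either DMSO library left out, no row of the whole table was called, so those fits say nothing of LANCL2 in particular. Its change stayed between -2.61 and -1.78 with any 1 library left out.

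VOPP1 had 1928 and 1316 FPKM in the resistant HCC827 libraries, against 4706 and 5975 FPKM in the DMSO libraries. The groups stood well apart, since the higher resistant library was under the lower DMSO library. Its change was -1.73 (SE 0.354), with a limma adjusted p of 0.0744 that missed the threshold. EGFR, LANCL2, VOPP1 and SEC61G thus had the 4 most negative changes of the 10 genes, and their loci begin between 0.27 Mb before and 0.42 Mb after the start of EGFR.

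**Figure D1:**
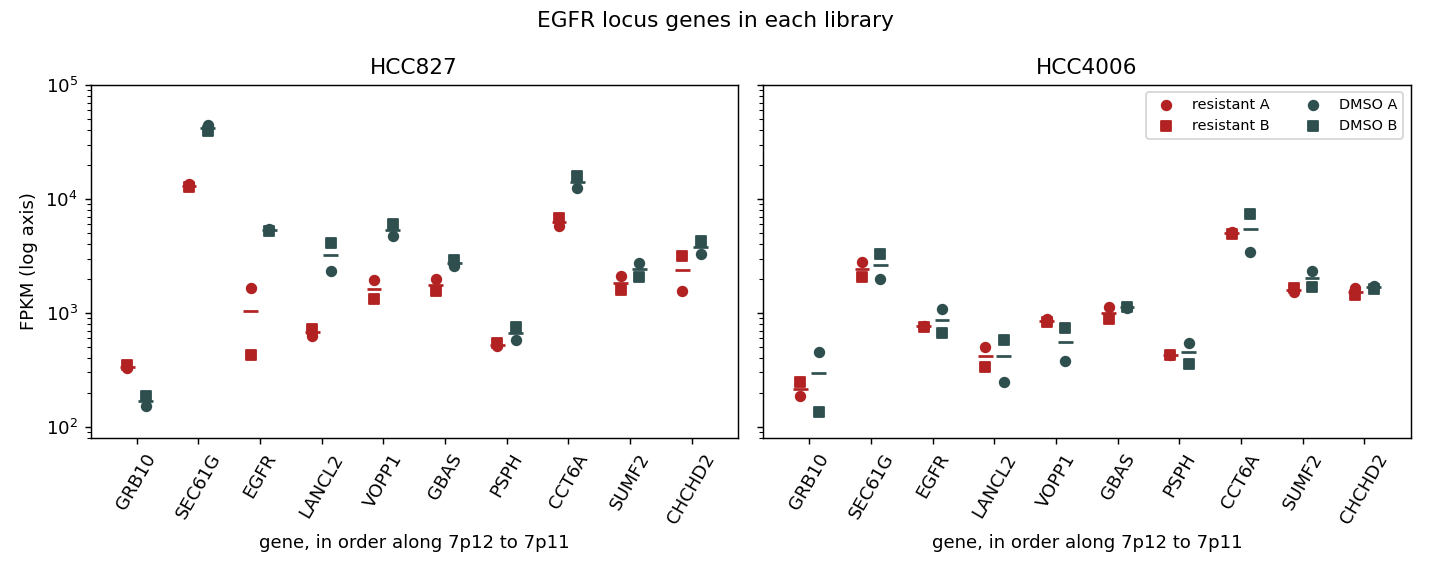
FPKM on a log axis for the 10 genes in each library, in order along the arm, with HCC827 on the left and HCC4006 on the right. Circles are library A, squares are library B, red is resistant, dark grey is DMSO, and lines are the means of 2 libraries. In HCC827 the resistant points of SEC61G, EGFR, LANCL2 and VOPP1 sit far below the DMSO points, and in HCC4006 8 of the 10 genes overlap between groups.

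The genes from 0.87 to 1.08 Mb beyond the start of EGFR had smaller differences in HCC827. CCT6A measured 5737 and 6738 FPKM in the resistant libraries, against 12443 and 15776 FPKM in the DMSO libraries. Its groups did not overlap, and its change of -1.17 (SE 0.337) had a limma adjusted p of 0.172. GBAS had 1970 and 1565 FPKM in the resistant libraries and 2555 and 2904 FPKM in the DMSO libraries, with no overlap and a change of -0.63 (limma adjusted p 0.371). The GBAS row joins the names of MRPS17, RP11-15K19.2 and ZNF713 as well, so it is a value for all of them together.

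PSPH had 510 and 544 FPKM in the resistant HCC827 libraries, against 573 and 759 FPKM in the DMSO libraries, a change of -0.32 (limma adjusted p 0.598). CHCHD2 had 1557 and 3173 FPKM in the resistant libraries and 3308 and 4282 FPKM in the DMSO libraries, a change of -0.76 (limma adjusted p 0.467). In both genes the highest resistant library came close to the lowest DMSO library without overlap. SUMF2 was the 1 gene whose groups overlapped in HCC827, at 2098 and 1579 FPKM in the resistant libraries against 2765 and 2063 FPKM in the DMSO libraries, with a change of -0.39 (limma adjusted p 0.581). SEC61G, PSPH, CCT6A and CHCHD2 have near-identical pseudogene copies elsewhere in the genome, and how fragments were divided among copies is not given in the sources used here.

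GRB10, 4.43 Mb from the start of EGFR, had 326 and 347 FPKM in the resistant HCC827 libraries, against 152 and 185 FPKM in the DMSO libraries. Both resistant libraries were above both DMSO libraries. The change of 1.005 (SE 0.279) had a limma adjusted p of 0.160, which missed the threshold.

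Over the 10 genes the median change in HCC827 was -0.97, beside -0.04 over all rows tested, and 9 of the 10 changes were negative. An unadjusted limma p below 0.05 was reached by 6 genes, which were GRB10, SEC61G, EGFR, LANCL2, VOPP1 and CCT6A, and by 18.2% of all rows. Together the 10 rows held 0.567% and 0.5% of the summed FPKM of the resistant libraries and 1.49% and 1.68% of the DMSO libraries. The 5 epithelial marker genes found were EPCAM, CDH1, KRT8, KRT19 and KRT7. They summed to 10151 and 16860 FPKM in the resistant HCC827 libraries and to 15595 and 14601 FPKM in the DMSO libraries. KRT7 was listed at 0 in all 8 libraries, which can be a failed estimate. Within that list KRT8 had 1175 and 2743 FPKM in the resistant libraries, against 5187 and 5157 FPKM in DMSO, with no overlap and a change of -1.53 (limma adjusted p 0.211). EPCAM, CDH1 and KRT19 overlapped between groups. Of the lung lineage markers, NKX2-1 had 352 and 632 FPKM in the resistant HCC827 libraries and 443 and 535 FPKM in DMSO, with overlap. NAPSA had 911 and 2656 FPKM in the resistant libraries, against 829 and 540 FPKM in DMSO, and SFTPB, a surfactant protein gene, had 88.1 and 68.5 FPKM in the resistant libraries, against 1.002 and 9.37 FPKM in DMSO. Both stood above DMSO without being called (limma adjusted p 0.391 and 0.0946), and SFTPC was listed at 0 in all 8. The immune markers PTPRC and CD3E and the endothelial marker CDH5 were listed at 0 in all 8 libraries. The 3 endothelial markers found summed to 0.45 and 0 FPKM in the resistant HCC827 libraries and to 0 in both DMSO libraries. In HCC4006 they summed to 4.08 and 4.07 FPKM in the resistant libraries, against 2.28 and 1.42 FPKM in DMSO. There, 2 of them were tested and 0 were called. CD68, a further immune marker, had 339 and 356 FPKM in the resistant HCC827 libraries and 335 and 264 FPKM in DMSO. The 5 fibroblast markers summed to 13.4 and 18.1 FPKM in the resistant HCC827 libraries, against 44.1 and 50.9 FPKM in DMSO. COL1A1 made up nearly all of that sum, with PDGFRB, COL1A2 and LUM at 0 in HCC827. In HCC4006, 3 genes of this list were tested over all rows, and PDGFRB was called higher. PDGFRB was also called in the difference between the lines. The part of these markers in the locus values was not tested.

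In HCC4006, none of the 10 genes was called, at an adjusted or an unadjusted limma p below 0.05, while 9.36% of the 19881 rows tested were called and 23.0% had an unadjusted p below 0.05. The groups overlapped for 8 of the 10 genes. Both resistant libraries lay below both DMSO libraries for SUMF2 alone, as in 26.5% of all rows, and above them for VOPP1 alone, as in 26.6%. The median change of the 10 genes was -0.10, beside -0.01 over all rows. When the fit was limited to tested rows above 0 in all 4 libraries, 88 of 16484 rows (0.534%) were called, 0 of them among the 10.

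EGFR measured 770 and 752 FPKM in the resistant HCC4006 libraries, against 1079 and 662 FPKM in the DMSO libraries. The resistant values lay between the DMSO values. The change was -0.15, with a 95% confidence interval of -1.03 to 0.73 and a limma adjusted p of 0.803. SEC61G had 2798 and 2071 FPKM in the resistant libraries and 1993 and 3255 FPKM in the DMSO libraries, again overlapping, with an interval of the change of -1.07 to 0.91. LANCL2 had 501 and 334 FPKM in the resistant libraries and 250 and 579 FPKM in the DMSO libraries, with an interval of -1.38 to 1.58. For these genes the DMSO libraries of HCC4006 stood 1.63-fold, 1.63-fold and 2.32-fold apart, so the intervals leave room for changes in either direction.

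VOPP1 had 882 and 832 FPKM in the resistant HCC4006 libraries, against 376 and 733 FPKM in the DMSO libraries. Both resistant libraries were above both DMSO libraries, and the DMSO libraries differed by 1.95-fold. The change of 0.71 (SE 0.392) had a limma adjusted p of 0.396. Without DMSO library B it was 1.19 with a limma adjusted p of 0.0411, the 1 call among the 10 genes that leaving out a library gave in this line. That fit had 1 DMSO library, assumed to vary like the resistant pair, which stood 1.06-fold apart.

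The remaining genes of HCC4006 differed little or varied between the DMSO libraries. SUMF2 had 1540 and 1639 FPKM in the resistant libraries, against 2310 and 1700 FPKM in the DMSO libraries, a change of -0.32 (limma adjusted p 0.512). GRB10 had 185 and 247 FPKM in the resistant libraries, against 455 and 134 FPKM in the DMSO libraries. Its DMSO values stood 3.40-fold apart and bracketed the resistant ones. CCT6A had 5127 and 4903 FPKM in the resistant libraries, against 3441 and 7396 FPKM in DMSO, which also bracketed them. For GBAS, PSPH and CHCHD2 the limma adjusted p was 0.678, 0.940 and 0.739. GBAS had 1122 and 887 FPKM in the resistant HCC4006 libraries, against 1112 and 1130 FPKM in the DMSO libraries. PSPH had 429 and 425 FPKM in the resistant libraries, against 545 and 358 FPKM in the DMSO libraries. CHCHD2 had 1650 and 1430 FPKM in the resistant libraries, against 1731 and 1616 FPKM in the DMSO libraries. All 3 overlapped between groups, and their changes lay between -0.17 and -0.05.

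The 2 lines were compared by subtracting the HCC4006 change from the HCC827 change in 1 fit of all 8 libraries. VOPP1 was the 1 of the 10 genes called, and 12.1% of the 20685 rows tested were called. Its difference of changes was -2.44 (SE 0.536, 95% confidence interval -3.75 to -1.13, limma adjusted p 0.0354). Both resistant libraries were below both DMSO libraries in HCC827 and above them in HCC4006. The differences were -2.53 for EGFR (SE 0.878, limma adjusted p 0.137), -2.30 for LANCL2 (SE 0.691, limma adjusted p 0.0949) and -1.60 for SEC61G (SE 0.464, limma adjusted p 0.0854), none of which passed the threshold.

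CCT6A had a difference of changes of -1.16 (limma adjusted p 0.272) and GRB10 had one of 1.21 (limma adjusted p 0.396). The other 4 genes had differences between -0.64 and -0.07. An unadjusted limma p below 0.05 was reached by SEC61G, EGFR, LANCL2 and VOPP1 and by 25.2% of all rows. When the fit was limited to tested rows above 0 in all 8 libraries, 212 of 14642 rows (1.45%) were called, 0 of them among the 10, and VOPP1 had a limma adjusted p of 0.0720. Its call was lost under any 1 of 7 left-out libraries, with limma adjusted p between 0.0562 and 0.164. Without HCC4006 DMSO library B it held, together with SEC61G, LANCL2, CCT6A and GRB10. Without HCC827 resistant library A the 1 gene called was EGFR, with a difference of -3.51 and a limma adjusted p of 0.0124, again with the spread of the resistant pair dropped.

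Levels were also set across the lines, as ratios of HCC827 to HCC4006. In the resistant cultures EGFR had a ratio of 1.10, LANCL2 of 1.64 and VOPP1 of 1.86. SEC61G, at 5.43-fold, was the 1 gene of the 10 with a ratio over 2, beside 14.6% of the 14804 rows above 0 in all 8 libraries. The ratios of the other genes were 1.76 for GBAS, 1.57 for GRB10, 1.45 for CHCHD2, 1.24 for CCT6A, 1.23 for PSPH and 1.15 for SUMF2. The resistant HCC827 level of EGFR, at 1639 and 424 FPKM, fell on either side of the resistant HCC4006 level of 770 and 752 FPKM.

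In the DMSO cultures the lines were farther apart for the genes nearest to EGFR. HCC827 exceeded HCC4006 by 16.5-fold for SEC61G, 10.1-fold for VOPP1, 8.09-fold for LANCL2 and 6.33-fold for EGFR. Of the same 14804 rows, 0.351%, 0.743%, 1.01% and 1.41% had a higher ratio than these genes. CCT6A was 2.78-fold, GBAS 2.43-fold and CHCHD2 2.25-fold higher in HCC827, and PSPH, SUMF2 and GRB10 had ratios of 1.49, 1.21 and 0.679. In all, 7 of the 10 genes had a ratio over 2 on the linear scale, as did 13.0% of all rows.

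**Figure D2:**
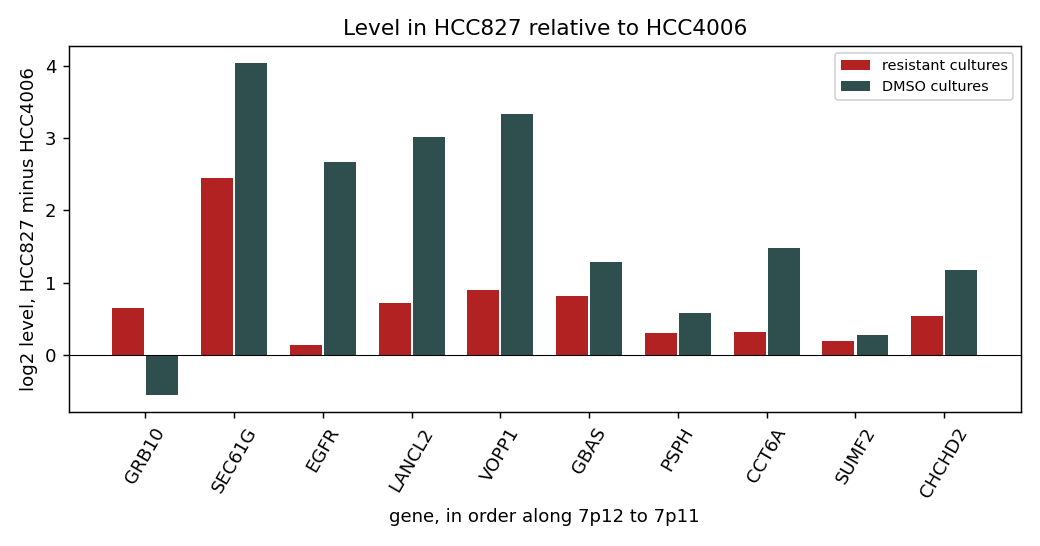
Log2 level in HCC827 minus log2 level in HCC4006 for each gene, in order along the arm, for resistant cultures (red) and DMSO cultures (dark grey). Bars are differences between means of 2 libraries and carry no error. In the resistant cultures SEC61G alone stands above 1 on this scale, and in DMSO the bars of SEC61G, EGFR, LANCL2 and VOPP1 are the tallest.

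Within HCC827, 4 of the 10 genes kept their place by mean level in both groups, and they were SEC61G, CCT6A, PSPH and GRB10. SEC61G was highest and CCT6A next in all 4 libraries, at means of 13077 ± 564 and 6237 ± 708 FPKM in the resistant culture and 42097 ± 3826 and 14109 ± 2356 FPKM in DMSO (SD, n = 2). GRB10 was the lowest of the 10, at 337 ± 15.1 FPKM in the resistant culture and 168 ± 23.4 FPKM in DMSO (SD, n = 2). Between these, EGFR averaged 1031 ± 859 FPKM in the resistant culture and 5354 ± 153 FPKM in DMSO (SD, n = 2). In both resistant libraries EGFR lay below VOPP1, GBAS and SUMF2. Its order against CHCHD2, LANCL2 and PSPH switched between the 2 resistant libraries. In DMSO, EGFR and VOPP1 (5341 ± 897 FPKM, SD, n = 2) did not differ beyond their spread. In HCC4006, CCT6A was the highest of the 10 in every library, at 5015 ± 158 FPKM in the resistant culture and 5418 ± 2796 FPKM in DMSO (SD, n = 2).

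Other rows near the genes were examined for how far the lower values reached. Of 185 rows from 50 to 58 Mb on chromosome 7 (hg19), 39 were above 0 in all 8 libraries. Without the 10 genes, 29 rows were left, with a median change of -0.29 in HCC827. Both resistant libraries lay below both DMSO libraries in 11 of these 29 rows, or 37.9%, and in 26.3% of all 14804 rows. The row RP4-791C19.1, which lies between SEC61G and EGFR, had 158 and 52.1 FPKM in the resistant HCC827 libraries and 156 and 88.5 FPKM in DMSO, an overlap with a change of -0.37. Another row, listed on the locus of EGFR itself, had 0.283 and 0.320 FPKM in the resistant libraries and 4.53 and 2.26 FPKM in DMSO. That change of -2.22 (limma adjusted p 0.179) cannot be separated from EGFR, since fragments on 1 locus were counted without strand.

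No other row of this window was called in HCC827. RP11-760D2.7, 1.55 Mb from the start of EGFR, had 268 and 292 FPKM in the resistant HCC827 libraries and 835 and 681 FPKM in DMSO, a change of -1.43 (limma adjusted p 0.0670). Its difference between the lines, -1.47, was called with a limma adjusted p of 0.0435, though not in the fit limited to rows above 0, where it was 0.113. Also called over all tested rows were the differences of GS1-18A18.3, RP11-760D2.2 and a second row on the COBL locus. Among rows above 0 in all 8 libraries, the most negative changes after the 10 genes and the rows just given were RP11-760D2.10 at -1.62, RP11-114G11.2 at -1.56 and RP11-700P18.2 at -1.19, none of them called. In HCC4006, 3 rows of the window were called. COBL, an actin nucleator gene, had 20.3 and 17.3 FPKM in the resistant HCC4006 libraries, against 143 and 155 FPKM in DMSO, and fell by 2.96 on the log2 scale (limma adjusted p 0.00496). A second row on the COBL locus was listed at 0 in both resistant libraries, and PHKG1 was listed at 2.87 and 3.05 FPKM in the resistant libraries and at 0 in both DMSO libraries. Other rows with large changes in HCC4006, none of them called, were RP11-1217F2.1 at -1.68, RP4-725G10.3 at -1.28, CTD-2021A8.3 at 1.06 and RP11-700P18.1 at -0.78.

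**Figure D3:**
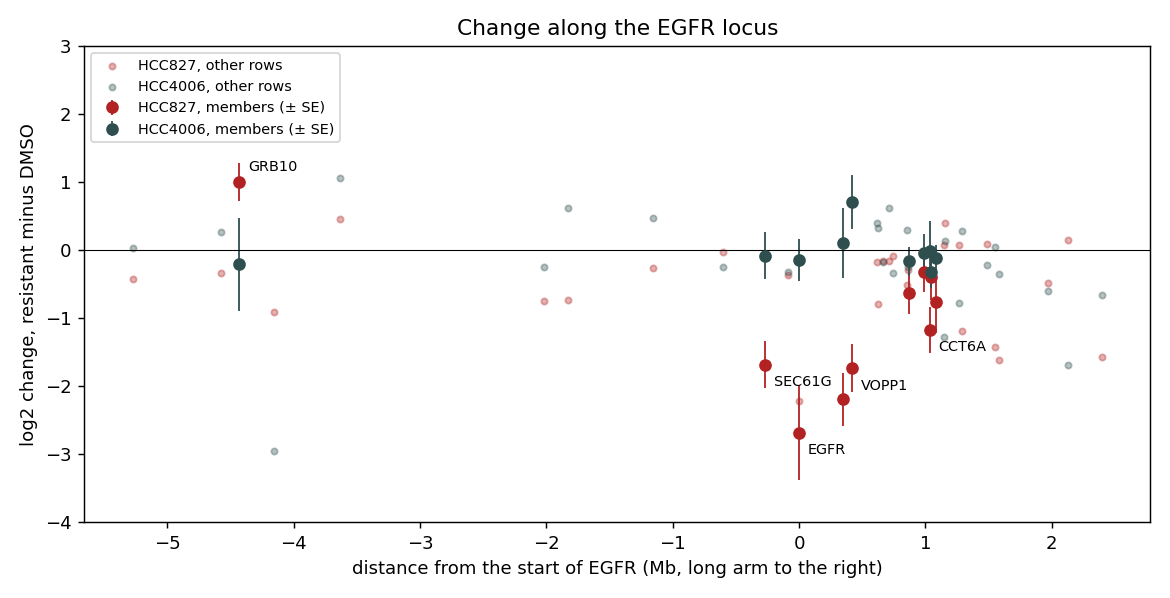
Log2 change, resistant minus DMSO, against distance from the start of EGFR in Mb, for rows from 50 to 58 Mb that were above 0 in all 8 libraries. Red is HCC827, dark grey is HCC4006, large points are the 10 genes with their SE, and small points are other rows. The HCC827 points of SEC61G, EGFR, LANCL2 and VOPP1 lie between -1.68 and -2.68, and GRB10 lies at 1.005.

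Lower values in resistant HCC827 were not restricted to the EGFR window. Over the 240 rows of 7p below 50 Mb that were above 0 in all 8 libraries, the median change was -0.44. Of these, 118 rows, or 49.2%, had both resistant libraries below both DMSO libraries. Over 478 rows of 7q beyond 62 Mb the median was -0.08 and that share was 24.5%, and over all 14804 rows they were -0.10 and 26.3%. The 7q rows were not alike. The bin from 60 to 70 Mb, which reaches into 7q, had a median of -0.54 and a share of 57.1% over 35 rows. Bins of chromosome 7 from 70 Mb on had medians between -0.22 and 0.39. Each resistant library taken alone gave -0.40 and -0.40 for 7p, a check chosen after the data were seen. Beside the 7p median of -0.44, the changes of PSPH at -0.32 and SUMF2 at -0.39 were no more negative. Those of EGFR, LANCL2, VOPP1, SEC61G, CCT6A, CHCHD2 and GBAS were more negative. For PSPH and SUMF2 this depends on the filter. Over the 364 rows of 7p with a mean of at least 0.5 FPKM, the median was -0.24 and the share was 37.9%. All 20685 rows under that filter had 0.0 and 23.0%. PSPH and SUMF2 were more negative than -0.24. In HCC4006 the median of the 240 rows of 7p was 0.09, with 21.2% of them lower in both resistant libraries.

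In bins of 10 Mb, the medians of HCC827 from 0 to 70 Mb of chromosome 7 lay between -0.71 and -0.26. Of these 7 bins, 6 had a median below -0.35. The bin from 50 Mb, at -0.38, is among the 6 and includes the 10 genes. So is the bin from 60 Mb, at -0.54, which reaches into 7q. Rows from 50 to 58 Mb without the 10 genes had a median of -0.29, which is not below -0.35. Among 250 bins of the other chromosomes with at least 20 rows, 12 had a median below -0.35, and the lowest of them, on chromosome 17, reached -0.94. A limit of -0.35 was chosen after the values were seen. The median of whole chromosomes in HCC827 ran from -0.23 for chromosome 17 to 0.09 for chromosome 16. In HCC4006, 0 of the 7 bins and 8 of the 250 bins were below -0.35. Genes are not replicates, so these medians carry no test.

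**Figure D4:**
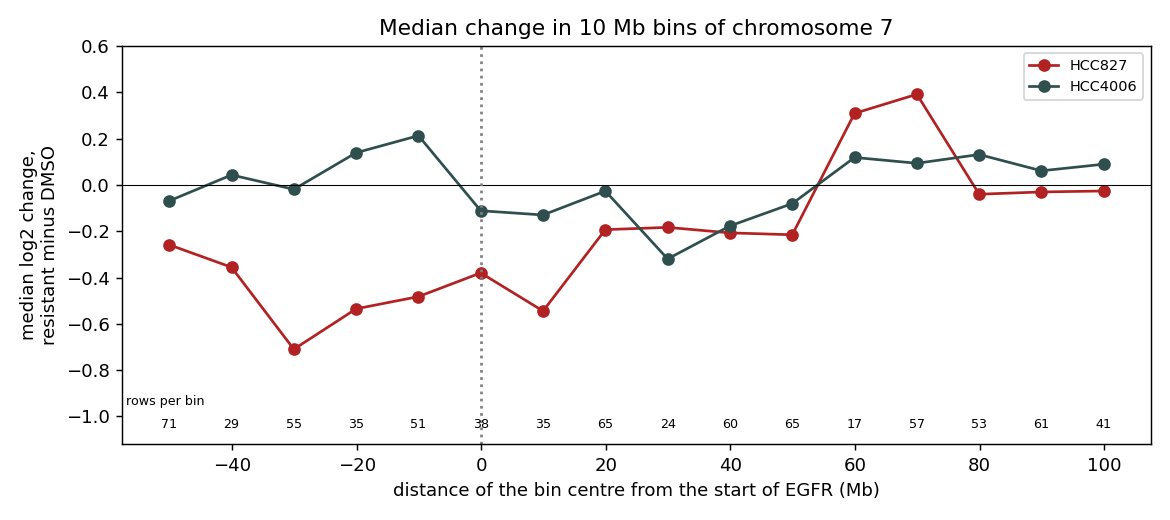
Median log2 change, resistant minus DMSO, in 10 Mb bins of chromosome 7, plotted by the distance of the bin centre from the start of EGFR in Mb, for HCC827 (red) and HCC4006 (dark grey). Numbers give the rows in each bin, and the dotted line marks EGFR. The bin from 50 Mb includes the 10 genes. HCC827 bins left of and next to EGFR lie between -0.71 and -0.26, and HCC4006 bins in that range lie between -0.13 and 0.21.

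The partners of SEC61G and CCT6A lie outside the locus, and their values describe the rest of each complex. Of the 11 SEC61 translocon genes listed, 10 were tested in HCC827 and 0 were called. The 9 partners had changes between -0.33 and 0.89 with a median of 0.19, beside -1.68 for SEC61G. SEC61A1, the channel itself, had 1765 and 944 FPKM in the resistant HCC827 libraries, against 1363 and 1527 FPKM in DMSO. SEC61B, the beta subunit, had 456 and 605 FPKM in the resistant libraries, against 471 and 413 FPKM in DMSO. Both genes overlapped between groups. Over the 10 partners tested in HCC4006 the median was -0.29, and 0 were called.

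Of the 9 CCT chaperonin genes, 7 besides CCT6A were above 0 in all 4 HCC827 libraries. Their changes ran from -0.60 to 1.25 with a median of -0.39, and 5 of the 7 were negative, beside -1.17 for CCT6A. The highest was CCT6B, with only 9.85 and 8.05 FPKM in the resistant libraries, against 3.21 and 3.72 FPKM in DMSO. Next to it was CCT2, at 0.04. CCT3 had 1863 and 4023 FPKM in the resistant HCC827 libraries, against 3917 and 4405 FPKM in DMSO. CCT5 had 2939 and 6184 FPKM in the resistant libraries, against 4533 and 7277 FPKM in DMSO. In both the resistant libraries overlapped the DMSO libraries. CCT4 was the 1 gene of the list called in each line. It had 1306 and 2165 FPKM in the resistant HCC827 libraries and was listed at 0 in the DMSO libraries of both lines, although it belongs to a complex that every cell uses. Such a 0 can be a failed estimate, so no fold was taken.

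**Figure D5:**
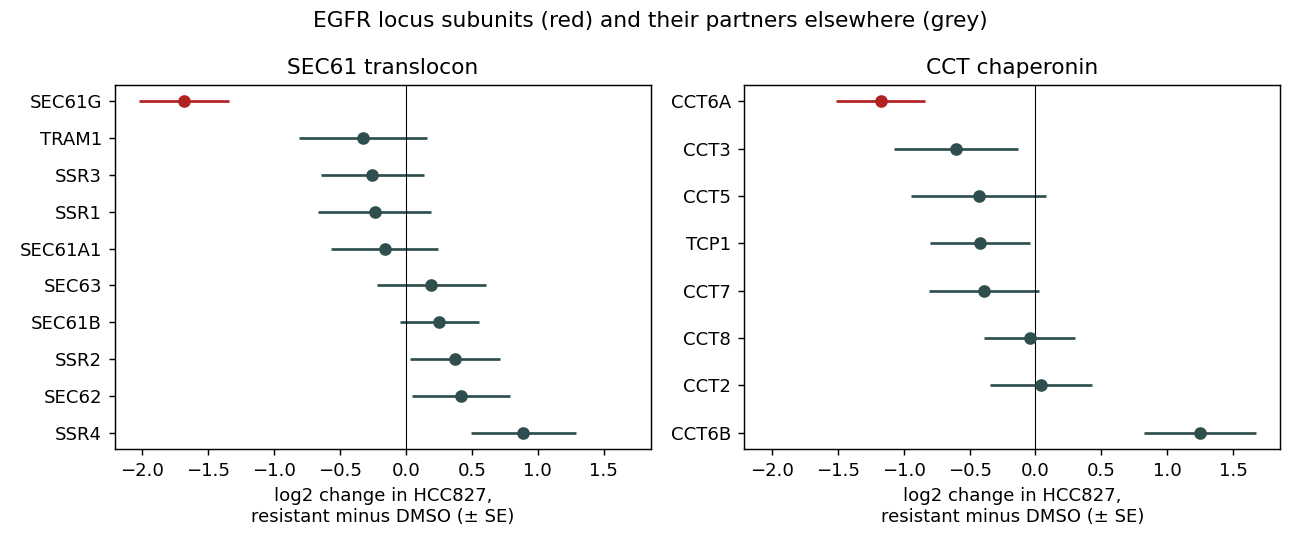
Log2 change in HCC827, resistant minus DMSO, with its SE, for SEC61 translocon genes (left) and CCT chaperonin genes (right) above 0 in all 4 libraries. Red marks SEC61G and CCT6A, and dark grey marks listed genes encoded outside the EGFR locus. SEC61G at -1.68 and CCT6A at -1.17 are the lowest of their panels.

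Serine synthesis genes, the pathway of PSPH, were tested for all 5 listed, and 0 were called in either line. PHGDH, the first enzyme, had 748 and 353 FPKM in the resistant HCC827 libraries, against 148 and 187 FPKM in DMSO, a change of 1.62 (limma adjusted p 0.164). SHMT1, which uses serine to make glycine, had 86.1 and 171 FPKM in the resistant libraries, against 320 and 361 FPKM in DMSO, a change of -1.48 (limma adjusted p 0.168). Neither pair of groups overlapped.

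A list of 13 genes held LANCL2, VOPP1, GBAS, SUMF2 and CHCHD2 with their relatives, and 12 of them were tested in HCC827. There LANCL2 was called lower and LANCL1 called higher. LANCL1 had 169 and 105 FPKM in the resistant HCC827 libraries and was listed at 0 in the DMSO libraries of both lines, which can be a failed estimate as for CCT4. SUMF1, which activates sulfatases, had 191 and 198 FPKM in the resistant HCC827 libraries and 79.5 and 85.0 FPKM in DMSO, with a change of 1.24 (limma adjusted p 0.0880). Its groups were well separated, and its difference between the lines of 1.77 was called (limma adjusted p 0.0164), though not in the fit limited to rows above 0 (limma adjusted p 0.0797).

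Receptors and ligands of the EGFR family other than EGFR were taken from the same fits. Of 15 genes, EGFR included, 11 were tested in HCC827, where 1 was called higher and 0 lower. EPGN, which encodes the EGFR ligand epigen, was that gene. It was listed at 271 and 377 FPKM in the resistant libraries and at 0 in the DMSO libraries. Such a 0 can be a failed estimate, as for CCT4. ERBB2 had 562 and 426 FPKM in the resistant HCC827 libraries, against 308 and 154 FPKM in DMSO, a change of 1.16 (limma adjusted p 0.273). HBEGF, another ligand, had 4.52 and 5.62 FPKM in the resistant libraries, against 16.0 and 59.0 FPKM in DMSO, a change of -2.50 (limma adjusted p 0.168). The groups of both genes were apart without passing the threshold.

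In HCC4006, 12 genes of the family were tested, and ERBB2 and ERBB3 were called lower and NRG2 higher. ERBB3 had 6.90 and 13.6 FPKM in the resistant HCC4006 libraries, against 215 and 110 FPKM in DMSO, and fell by 3.91 (limma adjusted p 0.0295). ERBB2 had 56.2 and 57.2 FPKM in the resistant libraries, against 127 and 122 FPKM in DMSO, and fell by 1.13 (limma adjusted p 0.0497). Both calls were lost when the fit was limited to tested rows above 0 in all 4 libraries, where the limma adjusted p was 0.0696 for ERBB3 and 0.146 for ERBB2. NRG2 was listed at 5.43 and 5.81 FPKM in the resistant libraries and at 0 in both DMSO libraries. The epithelial markers moved with these genes, since EPCAM, CDH1 and KRT19, with the lung factor NKX2-1, were called lower in HCC4006 and the epithelial list summed to 1772 and 1607 FPKM in the resistant libraries, against 9381 and 15721 FPKM in DMSO. In the fit limited to rows above 0, NKX2-1 was no longer called (limma adjusted p 0.0729). The part of these markers in the receptor values was not tested. Of 13 family genes tested in the difference between the lines, ERBB2, ERBB3, EPGN and NRG2 were called, beside 12.1% of all rows. In the fit limited to rows above 0, the ERBB3 difference of 4.11 was still called (limma adjusted p 0.0484). The ERBB2 difference of 2.30 was not (limma adjusted p 0.0735).

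Of 24 adaptors and negative regulators of EGFR, 22 were found and tested in each line. In HCC827, 0 were called, and their median change was -0.19. GRB7, an adaptor related to GRB10, had 271 and 549 FPKM in the resistant HCC827 libraries, against 96.4 and 69.4 FPKM in DMSO, a change of 2.23 (limma adjusted p 0.0744). CBLC, a ubiquitin ligase of the CBL family, had 104 and 96.8 FPKM in the resistant libraries, against 33.3 and 23.6 FPKM in DMSO, a change of 1.82 (limma adjusted p 0.0505). Both genes stood apart between groups in the same direction as GRB10. In HCC4006, LRIG1, SOCS5 and EPS15 were called higher and GRB14 lower. LRIG1 and EPS15 were listed at 0 in both DMSO libraries, which can be a failed estimate as for CCT4. GRB14 had 4.79 and 4.14 FPKM in the resistant HCC4006 libraries, against 33.9 and 39.2 FPKM in DMSO, and fell by 2.90 (limma adjusted p 0.00845). In the fit limited to rows above 0, GRB14 and SOCS5 were not called, with limma adjusted p of 0.0643 and 0.147. Of the 22 genes, LRIG1, EPS15, GRB7 and GRB14 were called in the difference between the lines, beside 12.1% of all rows. With that fit limited to rows above 0, the GRB7 difference of 4.63 was still called (limma adjusted p 0.0311). The GRB14 difference of 2.37 was not (limma adjusted p 0.0601).

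Rows outside the chromosome 7 window described above were ranked by how like EGFR their course over the 8 libraries was. Likeness was the root mean square difference of log2(FPKM + 0.5), centred on the mean of each line, over 14765 candidate rows. Rows of that window were left out of the candidates, so the closest candidates could only lie off the locus. The other locus genes were scored apart from the candidates. The closest were FSTL1 at 0.266, FOXN3 at 0.280, MPP2 at 0.293, ARHGEF11 at 0.355 and RP11-208G20.2 at 0.357, beside a median of 1.14 over all candidates. The score includes both resistant HCC827 libraries, so rows this close to EGFR had to share its higher value in library A. All 5 were higher in A than in B. FOXN3, for example, had 55.3 and 12.7 FPKM in the resistant libraries, against 104 and 116 FPKM in DMSO. Among the other locus genes, SEC61G was at 0.691 with 303 candidates closer to EGFR, VOPP1 at 0.714 with 392 closer and LANCL2 at 0.795 with 827 closer. GRB10 was the least like EGFR of the 9, at 1.43 with 12864 candidates closer.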

How the data were processed

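PolyA RNA was sequenced in 4 groups of 2 libraries from an unstranded TruSeq v2 kit, per the labels' protocols. The authors deposited gene-level FPKM in 2 tables, 1 per line. Cufflinks 1.3.0, Cuffdiff, TopHat 1.4.1 and build hg19 are named, per the submitters' processing notes. No annotation or option is stated there. Column letters were not tied to the labels' replicate numbers, and 0 per-sample columns lay outside the 8 libraries.

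From these tables, log2(FPKM + 0.5) was fitted with limma 3.58.1 (R 4.3.3), using trended eBayes, for every row averaging at least 0.5 FPKM. Each line was fitted alone, and the difference between lines was an interaction contrast. The Benjamini-Hochberg adjustment ran over the whole of each fit. With 2 against 2 libraries an exact two-sided permutation test of a single gene cannot go below 0.333. The fit was tested on simulated data. Figures used Python 3.11.15 and matplotlib 3.10.9.

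The members and gene lists were chosen with earlier results of these data known. Named by rule were the 10 genes and rows of 50 to 58 Mb called or among the 5 largest changes in a line. Also named were the 5 rows outside that window most like EGFR, and called list members with up to 4 examples. Promoters are RefSeq sequences on GRCh38.p14, a build other than that of the tables, so no coordinates were moved between them. One listed immune marker is not reported here.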

Additional observations from a re-analysis of the deposited data

Results flagged for a closer look

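VOPP1 was singled out because its change differed between the lines by a test of the difference itself, at -2.44 on the log2 scale (limma adjusted p 0.0354). It had 1928 and 1316 FPKM in resistant HCC827 against 4706 and 5975 FPKM in its DMSO culture, and 882 and 832 FPKM in resistant HCC4006 against 376 and 733 FPKM in its DMSO culture.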

How the results depend on the processing

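Of the values of single genes, leaving out 1 library left 128 with the same direction and side of the threshold, reversed 14, and moved 18 across the threshold. Other settings left 274, reversed 4 and moved 12. In HCC827, where LANCL2 was called, 0 of the 10 genes were called with a pseudocount of 0.1, without the filter on low values, over rows above 0 in every library, after scaling to the same median or without the trend. Quantile normalization gave 2, the replicate block gave 2 and 1 fit over all 8 libraries gave 3, and leaving out 1 library gave 0 to 1, where leaving out either DMSO library left no row of the table called. In HCC4006, leaving out 1 library gave 0 to 1. For the difference between lines, rows above 0 gave 0, quantile normalization gave 2, the replicate block gave 0, and leaving out 1 library gave 0 to 5. Whether column letters pair the libraries was not settled, since the labels do not say so and there are only 2 pairs a line; the correlation of A minus B between groups was 0.206 in HCC827 and -0.08 in HCC4006. The block is given as a description, and with it EGFR in HCC827 had a limma adjusted p of 0.0444.

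All reversals were in HCC4006 or in the difference. Quantile normalization turned SEC61G to 0.090, CCT6A to 0.27 and CHCHD2 to 0.022 in HCC4006, and scaling to the same median turned CCT6A to 0.034. Leaving out 1 library in HCC4006 gave -0.50 to 0.20 for EGFR, -0.50 to 0.71 for LANCL2, -0.35 to 0.26 for PSPH, -1.09 to 0.67 for GRB10, -0.44 to 0.27 for SEC61G, -0.56 to 0.54 for CCT6A and -0.34 to 0.0015 for GBAS, and for the difference -0.58 to 0.025 for PSPH and -0.29 to 0.15 for SUMF2. The cause was not tested. Every gene had 1 row, so taking the mean over rows of a name gave no other value.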
